A study of Solanum lycopersicum with 86 samples.

Results

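Alpha-expansins are small proteins of the plant cell wall. They loosen the contacts between cellulose and the other wall polymers without cutting them, so that a cell under turgor can stretch its wall. They are known from growing organs, among them elongating stems. Added far-red light lowers the red to far-red ratio, which a plant reads through its phytochromes as a sign of neighbouring plants. In many plants the stem then elongates faster.

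The genes described here are 8 tomato genes that were listed by identifier as expansins: Solyc06g051800, Solyc06g049050, Solyc02g088100, Solyc06g076220, Solyc04g081870, Solyc03g031840, Solyc10g086520 and Solyc03g115890. All 8 were found among the 23050 genes of the deposited table, and all 8 were among the 19029 that entered the tests because their mean was 1 or more. The identifiers matched none of the 41476 genes of the RefSeq gene table used here, so no gene is given a name, a length or a role of its own beyond the family it was listed under. Lists of other wall genes could not be drawn up for the same reason. Levels are not compared between the genes, because a longer transcript gives more reads at the same abundance.

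RNA was sequenced from wild-type tomato plants (Solanum lycopersicum) of the cultivars Moneymaker and M82. Seedlings were raised in white light at 20 °C and 70% humidity with 16 h of light and 8 h of darkness. They then stayed in white light of 200 PAR (photosynthetically active radiation), called WL, or received that white light with far-red light added to a red to far-red ratio of 0.21, called FR. The first internode, the stem segment above the cotyledons, was taken whole 6, 24, 30 and 48 h after the start of treatment, and its pith, the innermost tissue, was taken at 30 and 48 h. The whole internode contains pith, so a difference between these tissues understates that between pith and the outer stem. In bulk samples, fewer cells of a type and less RNA per cell cannot be told apart. No markers of pith were available by identifier, so the tissue labels were not checked.

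The 86 libraries form 24 groups of 2 to 6. In Moneymaker there were 19 internode libraries under FR and 13 under WL, with 8 and 6 of pith. In M82 there were 11 internode libraries under FR and 15 under WL, with 5 and 9 of pith. A library held 0.769 to 22.1 M reads in the listed genes, with a median of 2.98 M. Values are read counts scaled by a single factor per library, and are called scaled counts here. Fold changes are differences of log2(scaled count + 1) with their standard errors, from 1 limma fit of all 24 groups. Adjusted p-values follow Benjamini and Hochberg over the 19029 genes, and a gene below 0.05 is said to be called. Replicate numbers stand for batches of plants, and nothing states how many plants a library pools. Numbers 7 and 8 occur only in Moneymaker internodes at 48 h, and their sample codes carry other numbers. The FR libraries 7 and 8 were the most alike of all pairs within a group. The Pearson chi-square between their reads was 2.0 per degree of freedom. They were counted as separate libraries.

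Of the 86 libraries, 11 went against a label when they were placed by the 50 genes that best separate the cultivars, or the times 6 and 30 h from 24 and 48 h, in the other libraries. The 8 genes took no part in these placements. By expression 6 libraries labelled M82, all from WL, were Moneymaker and 3 labelled Moneymaker were M82. The 6 were number 1 of the internodes at 6, 24 and 30 h and of the pith at 30 and 48 h, and number 5 of the internodes at 6 h. They thus fell mostly in 1 replicate number, although its WL internode at 48 h was M82 by expression. The 3 labelled Moneymaker all had number 3: the FR pith at 48 h and the WL internodes at 30 and 48 h. Other Moneymaker libraries with that number were Moneymaker by expression. In addition, 1 WL library of M82 pith and 1 of Moneymaker internode, both labelled 48 h, resembled 6 and 30 h. Another 5 libraries, all labelled 48 h, lay furthest from both ends of a scale from 0 for Moneymaker to 1 for M82. They were the Moneymaker FR internodes with numbers 7 and 8, at 0.39 and 0.48, the M82 FR internode number 4 at 0.63, the M82 FR pith number 1 at 0.68 and the M82 WL internode number 2 at 0.73. Next came the M82 FR internode number 5 at 6 h, at 0.79, and the M82 WL internode number 4 at 48 h, at 0.83. The M82 WL pith number 5 at 48 h lay at 0.57 on the way from 6 and 30 h to 24 and 48 h. Libraries were kept in their labelled groups, and the main results are also given without the 11. The light labels were checked with Solyc06g060830, a gene picked for its response to far-red light in earlier results of these data. Its scaled count lay between 166 and 332 in Moneymaker internodes under FR and between 33.5 and 98.4 under WL, with no overlap, and pith gave no overlap in either cultivar. In M82 internodes 1 FR library, number 3 at 24 h, had a value of 46.0, and 1 WL library, number 1 at 30 h and among the 11, had 230, so the groups overlapped there. At 30 h the FR library number 3 and the WL library number 4 both had 135 after rounding. The FR library at 46.0 is not among the 11, so the results without them keep it.

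Solyc04g081870 rose under far-red light in the internodes of both cultivars. In Moneymaker internodes its scaled count ran from 58.3 to 220 under WL, with a median of 115 in 13 libraries, and from 139 to 410 under FR, with a median of 245 in 19 libraries. In M82 internodes it ran from 50.2 to 189 under WL, with a median of 111 in 15 libraries, and from 157 to 394 under FR, with a median of 261 in 11 libraries. In both cultivars the FR median exceeded the highest WL value, while the ranges overlapped. Averaged over the 4 times, the log2 fold change was 0.98 ± 0.18 in Moneymaker internodes (limma adjusted p = 0.00021) and 1.13 ± 0.2 in M82 internodes (adjusted p = 0.00016). Without the 11 libraries these values were 1.02 ± 0.18 (adjusted p = 0.00017) and 1 ± 0.21 (adjusted p = 0.0043).

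In M82 pith, Solyc04g081870 had scaled counts of 153 and 117 under FR at 30 h and of 212, 143 and 296 at 48 h. Under WL it had 37.4, 59.0, 57.7 and 104 at 30 h and 58.3, 108, 158, 97.5 and 50.9 at 48 h. At 30 h both FR libraries lay above all 4 WL libraries, while at 48 h the ranges overlapped. Over both times the log2 fold change was 1.19 ± 0.27 (limma adjusted p = 0.0088). This call rests on few libraries: it was lost without the FR library number 4 at 48 h (1.07, adjusted p = 0.058), in a fit of only the groups compared (1.19, adjusted p = 0.067), and when the 11 libraries were dropped, 3 of which are WL pith of M82 (0.86 ± 0.28, adjusted p = 0.11).

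In Moneymaker pith, Solyc04g081870 had scaled counts of 55.7, 222, 134 and 126 under FR at 30 h and of 198, 250, 201 and 185 at 48 h. Under WL it had 56.7, 126 and 65.9 at 30 h and 98.4, 82.5 and 118 at 48 h. At 48 h every FR library lay above every WL library, and at 30 h the FR library number 1 was the lowest of all 7. Over both times the log2 fold change was 0.84 ± 0.26 and did not pass the test (limma adjusted p = 0.17). Without that FR library it was 1.03 and passed (adjusted p = 0.039).

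**Figure D1:**
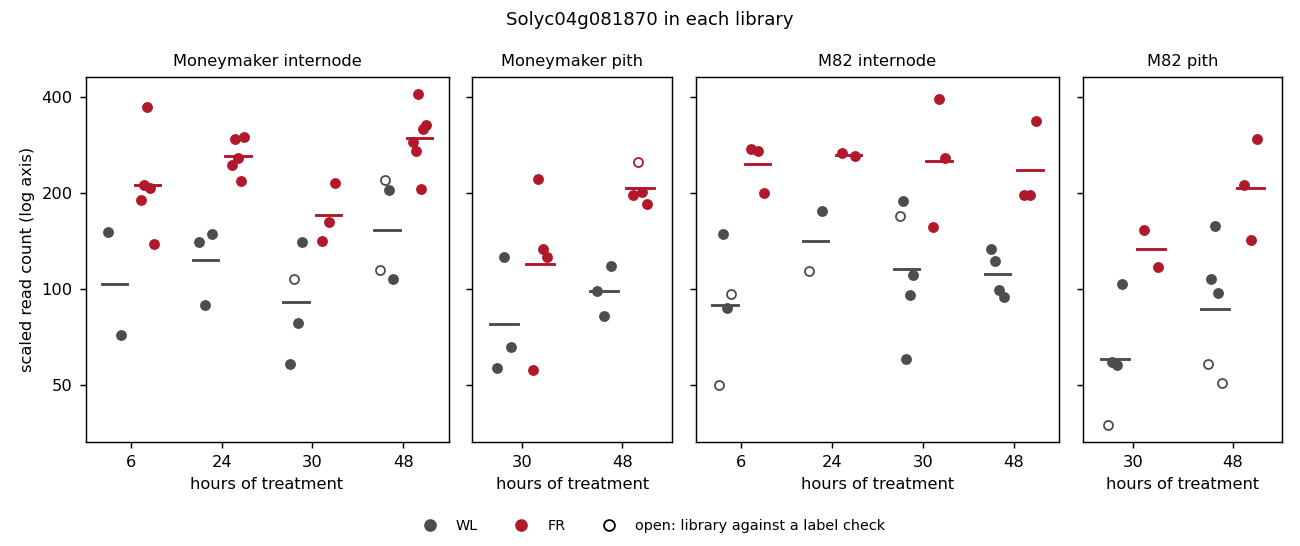
Scaled read counts of Solyc04g081870 in all 86 libraries (log axis) against hours of treatment, for both cultivars and tissues, with WL in grey and FR in red. Each point is a library, each bar is the mean of log2(value + 1) turned back to the linear scale, and open points are the 11 libraries against a label. FR means lie above WL means at all 12 pairs of groups.

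The FR mean of Solyc04g081870 was above the WL mean in 12 of 12 pairs of groups of the same cultivar, tissue and time, with log2 differences from 0.62 in Moneymaker pith at 30 h to 1.46 in M82 internodes at 6 h. In 7 of the 12 pairs every FR library lay above every WL library. The share of all tested genes that part in this way was not counted, here or for the genes below. At single times the adjusted p ranged from 0.053 in M82 pith at 48 h to 1, with 2 to 6 libraries on each side. A mean over all 12 pairs, a comparison chosen after seeing the data, gave 1.05 ± 0.11 (limma adjusted p = 7.4e-12), and 0.95 ± 0.11 without the 11 libraries (adjusted p = 1.7e-09). The far-red effect differed between M82 and Moneymaker by 0.15 ± 0.27 in internodes and 0.35 ± 0.38 in pith. Between pith and internode at 30 and 48 h it differed by -0.08 ± 0.36 in Moneymaker and 0.1 ± 0.38 in M82. None of these 4 differences passed the test (limma adjusted p from 0.84 to 1), and their standard errors leave room for sizeable differences. The 6 libraries labelled M82 that were Moneymaker by expression, all from WL, stayed in the M82 groups of these comparisons.

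Across the 8 genes, 1 was called between FR and WL in Moneymaker internodes, where 1.59% of all tested genes were called. In Moneymaker pith 0 of 8 were called, against 0.504% of all genes. In M82 internodes 1 of 8 was called, against 0.715%, and in M82 pith 1 of 8, against 3.71%. The called gene was Solyc04g081870 each time. The median log2 fold change of the 8 genes was -0.08, -0.05, 0.16 and 0.08 in these 4 comparisons, beside 0.01, -0.04, -0.01 and 0.01 over all tested genes. In Moneymaker internodes a second gene was called in some fits. It was Solyc06g076220 with the replicate block, at -0.45 (limma adjusted p = 0.020), and with DESeq2, at -0.36 (adjusted p = 0.041). It was Solyc03g115890 without the 11 libraries, at 0.94 ± 0.25 (limma adjusted p = 0.031).

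**Figure D2:**
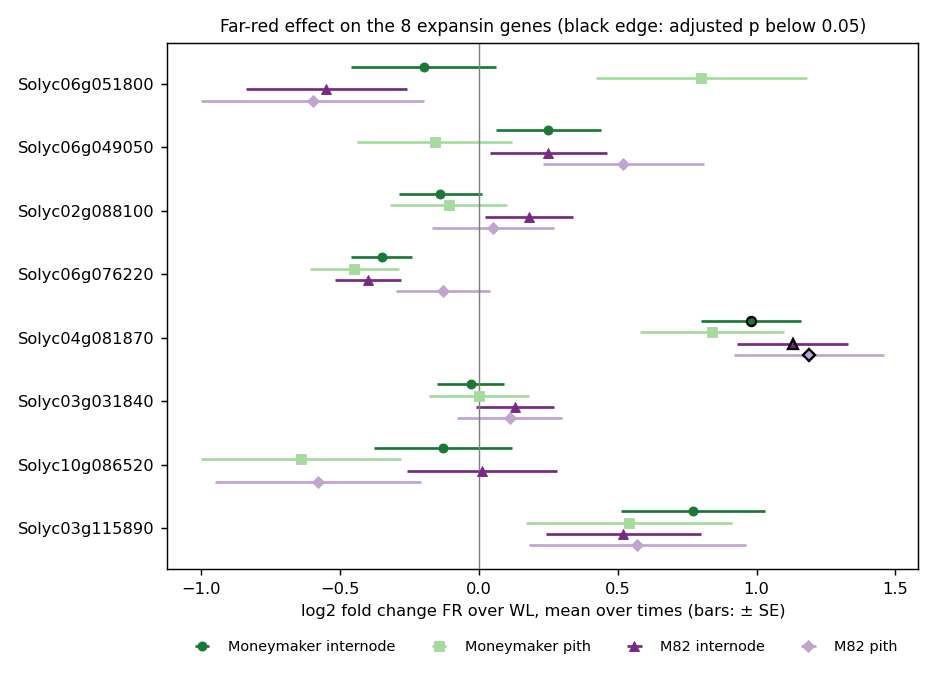
Log2 fold change of FR over WL for the 8 expansin genes, averaged over times, in 4 combinations of cultivar and tissue. Points are estimates of the fit, bars are ± 1 standard error, and a black edge marks an adjusted p below 0.05. Solyc04g081870 stands at 0.84 to 1.19, Solyc06g076220 at -0.45 to -0.13.

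Solyc06g076220 had lower means under far-red light, by a small amount that passed in no combination of cultivar and tissue in the main fit. Its scaled count ran from 114 to 228 (median 162) in 19 FR internodes of Moneymaker and from 166 to 301 (median 193) in 13 WL internodes. In M82 internodes it ran from 98.4 to 228 (median 146) in 11 FR libraries and from 129 to 268 (median 191) in 15 WL libraries. The ranges overlapped in both cultivars, yet the FR mean was the lower in 12 of 12 pairs of groups, by 0.06 to 0.57 on the log2 scale, and 4 pairs did not overlap. The log2 fold changes were -0.35 ± 0.11 in Moneymaker internodes (limma adjusted p = 0.11), -0.45 ± 0.16 in Moneymaker pith (0.35), -0.4 ± 0.12 in M82 internodes (0.14) and -0.13 ± 0.17 in M82 pith (0.7), so none passed. The mean over the 12 pairs, chosen after seeing the data, was -0.34 ± 0.07 (limma adjusted p = 0.00016). It was -0.35 ± 0.07 without the 11 libraries (adjusted p = 0.00013).

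Solyc03g115890 was measured with few reads, a median of 14 per library, with fewer than 10 in 25 libraries and none in 1. In Moneymaker internodes its scaled count ran from 2.84 to 13.6 (median 6.34) under FR and from 0 to 9.61 (median 4.23) under WL. In M82 internodes it ran from 2.72 to 12.5 (median 7.52) under FR and from 0.897 to 8.0 (median 4.43) under WL. The FR mean was the higher in 11 of 12 pairs, and in 3 of them the libraries did not overlap. These 3 pairs were small: M82 internodes at 24 h (2 FR and 2 WL libraries) and 48 h (3 and 4), and Moneymaker internodes at 6 h (5 and 2). The WL libraries of the last pair held 5 to 7 reads of this gene. The log2 fold change was 0.77 ± 0.26 in Moneymaker internodes (limma adjusted p = 0.12), and it passed without the WL library number 3 at 30 h, which went against its cultivar label (0.88, adjusted p = 0.047). The other 3 combinations gave 0.52 to 0.57 (adjusted p from 0.4 to 0.79). The mean over the 12 pairs, chosen after seeing the data, was 0.61 ± 0.16 (limma adjusted p = 0.0042). It was 0.68 ± 0.16 without the 11 libraries (adjusted p = 0.0017).

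In that mean over the 12 pairs, 3 of the 8 genes were called, 2 higher and 1 lower, where 11.4% of all tested genes were called. The other 5 had log2 fold changes from -0.24 to 0.23. Solyc02g088100 had 0 ± 0.09 and Solyc03g031840 had 0.05 ± 0.07, with 95% intervals from -0.17 to 0.18 and from -0.1 to 0.2. Solyc06g049050 had 0.23 ± 0.12, Solyc06g051800 had -0.22 ± 0.16 and Solyc10g086520 had -0.24 ± 0.15 (limma adjusted p from 0.22 to 0.98 over the 5 genes).

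Solyc06g049050 followed the hour of harvest. In Moneymaker internodes its scaled count ran from 89.0 to 187 at 6 h (median 128 in 7 libraries) and from 217 to 565 at 24 h (median 392 in 8 libraries). It was back at 77.8 to 221 at 30 h (median 114 in 7 libraries) and at 99.2 to 597 at 48 h (median 344 in 10 libraries). Harvests at 24 and 48 h fall at the same time of day, as do those at 6 and 30 h, and the gene was high at the first pair of times and low at the second. The lowest value at 48 h, 99.2, belonged to the WL library number 1, which resembled 6 and 30 h. M82 internodes went the same way, with 62.7 to 183 at 6 h (median 124), 331 to 518 at 24 h (median 379), 68.4 to 299 at 30 h (median 95.5) and 201 to 431 at 48 h (median 358).

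The log2 fold change of Solyc06g049050 between 24 and 48 h and 6 and 30 h was 1.53 ± 0.19 in Moneymaker internodes (limma adjusted p = 2.7e-09) and 1.59 ± 0.21 in M82 internodes (adjusted p = 1.9e-08). Without the 11 libraries it was 1.57 ± 0.18 and 1.67 ± 0.21. The times of a pair did not differ by a call: 30 h differed from 6 h by -0.01 ± 0.29 in Moneymaker and 0.09 ± 0.27 in M82, and 48 h from 24 h by -0.33 ± 0.25 and -0.32 ± 0.33 (adjusted p from 0.92 to 1). From 24 to 30 h it fell by 1.7 ± 0.27 on the log2 scale in Moneymaker (adjusted p = 4.8e-06) and by 1.7 ± 0.32 in M82 (adjusted p = 0.00015).

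Pith showed the same difference between its 2 times. In Moneymaker pith the scaled counts of Solyc06g049050 at 30 h were 46.0, 216, 93.2 and 79.1 under FR and 66.2, 145 and 74.9 under WL. At 48 h they were 241, 299, 301 and 256 under FR and 366, 425 and 287 under WL, all above every value at 30 h. Its log2 fold change of 48 h over 30 h was 1.76 ± 0.28 (limma adjusted p = 3.1e-06). In M82 pith the values at 30 h were 128 and 59.4 under FR and 74.2, 70.5, 82.3 and 97.2 under WL, and at 48 h they were 269, 316 and 402 under FR and 179, 238, 388, 149 and 56.4 under WL. All but 1 library at 48 h exceeded the 30 h values, and the exception, 56.4, was the library that resembled 6 and 30 h. The log2 fold change was 1.47 ± 0.29 (adjusted p = 0.0004), and 1.7 ± 0.27 without the libraries against a label.

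**Figure D3:**
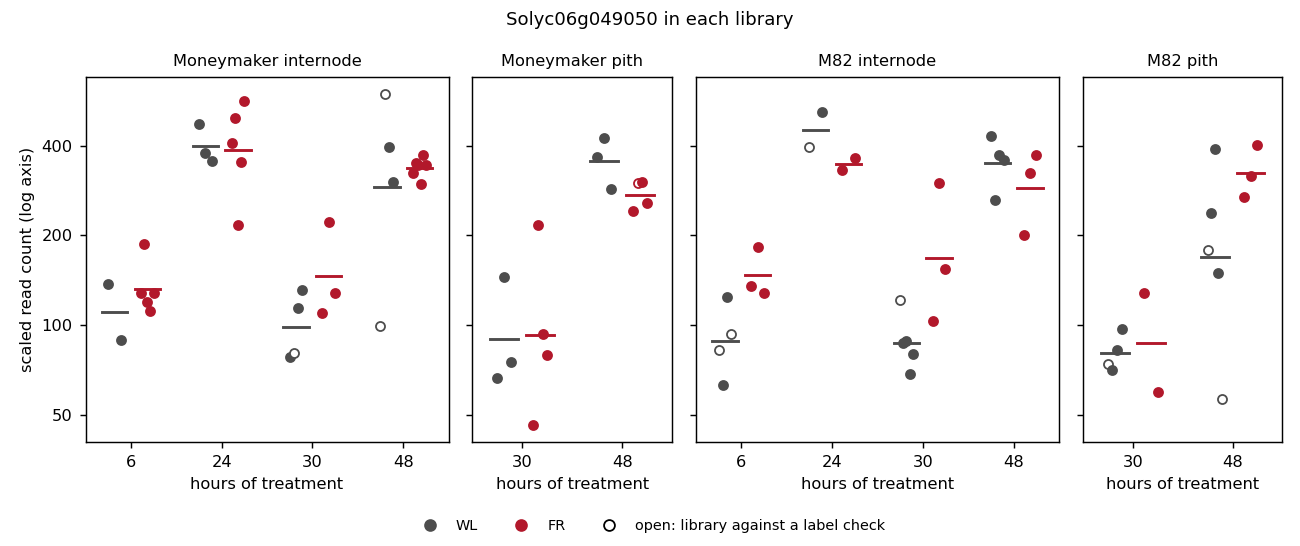
Scaled read counts of Solyc06g049050 in all 86 libraries (log axis) against hours of treatment, drawn as in the plot of Solyc04g081870, with WL in grey, FR in red and open points for the 11 libraries against a label. Group means are low at 6 and 30 h and high at 24 and 48 h in internodes, and low at 30 h and high at 48 h in pith, under both lights.

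Within each light of the internodes, the difference of Solyc06g049050 between 24 and 48 h and 6 and 30 h was 1.7 ± 0.3 under WL and 1.37 ± 0.25 under FR in Moneymaker, and 2.17 ± 0.28 under WL and 1.01 ± 0.32 under FR in M82. In M82 the WL values at 6 and 30 h ran from 62.7 to 124 and those at 24 and 48 h from 263 to 518, without overlap, while the FR values ran from 103 to 299 and from 201 to 371. The far-red effect differed between these pairs of times by -1.16 ± 0.43 in M82 (limma adjusted p = 0.62, 0.008 before adjustment) and by -0.33 ± 0.39 in Moneymaker (adjusted p = 1). That comparison was chosen after seeing the data and passed in neither cultivar, so the smaller range under FR is not established.

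Between 24 and 48 h and 6 and 30 h, 1 of the 8 genes was called in Moneymaker internodes, where 9.87% of all tested genes were called. In M82 internodes 2 of 8 were called, against 9.09%. The second was Solyc06g076220, at 0.37 ± 0.12 (limma adjusted p = 0.046), a call lost in 15 of 26 fits without 1 library and with the replicate block (adjusted p = 0.065). Between 48 and 30 h, 2 of 8 were called in Moneymaker pith, against 7.32%, and 1 of 8 in M82 pith, against 4.14%. The second gene in Moneymaker pith was Solyc02g088100, at 0.64 ± 0.21 (adjusted p = 0.048), and this call was lost in 10 of 14 fits without 1 library and with the replicate block (adjusted p = 0.063). Solyc04g081870 stood just outside the threshold in Moneymaker internodes, at 0.52 ± 0.18 (adjusted p = 0.054), and passed in 8 of 32 fits without 1 library. Between 48 and 30 h alone it was called there, at 0.77 ± 0.24 (limma adjusted p = 0.038), where 6.42% of all tested genes were called. Solyc06g076220 was called between these times in M82 internodes, at 0.52 ± 0.16 (adjusted p = 0.033), against 5.7%. No other pair of internode times was called for either gene. The median log2 fold change of the 8 genes was 0.09, 0.33, 0.38 and 0.13 in Moneymaker internodes, M82 internodes, Moneymaker pith and M82 pith, beside 0, 0.03, 0.03 and 0.01 over all tested genes.

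Between the second day (30 and 48 h) and the first (6 and 24 h) of treatment, 0 of 8 genes were called in either cultivar, as were 0% of all tested genes. In Moneymaker internodes 665 genes had an unadjusted limma p below 0.05, edgeR called 0 genes and DESeq2 called 5, and in M82 internodes 492 genes had such a p and both tools called 0. The log2 fold changes of the 8 genes ran from -0.17 to 0.24 in Moneymaker and from -0.33 to 0.17 in M82.

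Solyc02g088100 was lower in pith than in the whole internode. At 30 h in Moneymaker, where the lowest FR internode and the highest FR pith value round to the same number, it had scaled counts of 262, 274 and 162 in FR internodes against 80.4, 145, 159 and 162 in FR pith, and of 236, 262, 276 and 242 in WL internodes against 125, 173 and 93.5 in WL pith. At 30 h in M82 it had 196, 418 and 244 in FR internodes against 238 and 89.8 in FR pith, and 328, 273, 196, 233 and 210 in WL internodes against 167, 168, 108 and 107 in WL pith. Only the FR comparison of M82 overlapped at 30 h.

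At 48 h in Moneymaker, Solyc02g088100 had scaled counts from 191 to 410 (median 259) in 6 FR internodes against 217, 164, 148 and 213 in FR pith, and of 358, 431, 298 and 181 in WL internodes against 225, 192 and 250 in WL pith. At 48 h in M82 it had 260, 325 and 282 in FR internodes against 233, 166 and 182 in FR pith, and 322, 269, 278 and 375 in WL internodes against 146, 274, 227, 207 and 146 in WL pith. The FR groups of M82 were apart at 48 h, and the other 3 comparisons overlapped. The pith mean was the lower in 8 of 8 comparisons of the same cultivar, light and time, by 0.45 to 1 on the log2 scale.

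**Figure D4:**
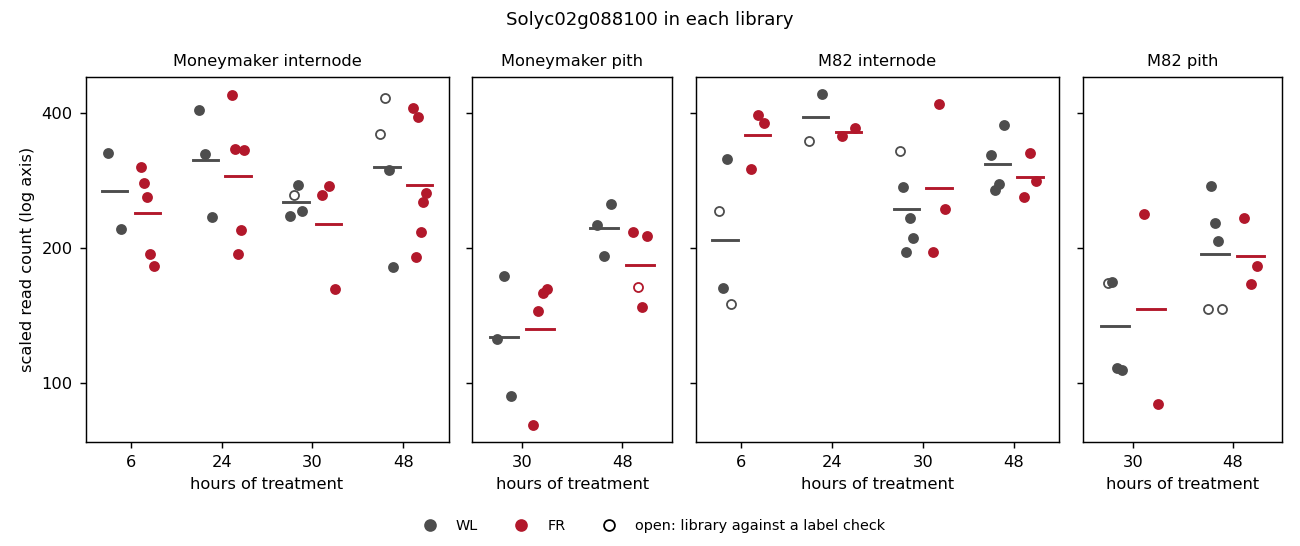
Scaled read counts of Solyc02g088100 in all 86 libraries (log axis) against hours of treatment, for both cultivars and tissues, with WL in grey, FR in red and open points for the 11 libraries against a label. The pith medians over 30 and 48 h, 163 in Moneymaker and 168 in M82, lie below the internode medians of 264 and 291, which also cover 6 and 24 h. At 30 and 48 h the internode medians are 262 and 282 in Moneymaker and 238 and 282 in M82. The pith medians at these times are 145 and 213 in Moneymaker and 138 and 194 in M82.

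The log2 fold change of pith over internode, averaged over light and over 30 and 48 h, was -0.71 ± 0.14 for Solyc02g088100 in Moneymaker (limma adjusted p = 0.004) and -0.75 ± 0.15 in M82 (adjusted p = 0.00067). Without the 11 libraries it was -0.59 ± 0.15 (adjusted p = 0.043) and -0.68 ± 0.16 (adjusted p = 0.0043). The M82 call was lost without the FR pith library number 3 at 30 h (-0.57, adjusted p = 0.051), the lowest of the M82 values at 89.8. No far-red difference was called for this gene: the FR minus WL log2 fold changes were -0.14 ± 0.15, -0.11 ± 0.21, 0.18 ± 0.16 and 0.05 ± 0.22 in Moneymaker internodes, Moneymaker pith, M82 internodes and M82 pith (adjusted p from 0.75 to 0.96).

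Between pith and internode, 1 of 8 genes was called in Moneymaker, where 1.12% of all tested genes were called, and 1 of 8 in M82, against 2.73%. Within single lights, 0 of 8 were called in Moneymaker under FR, against 0.904%, and under WL, against 0%. In M82 0 of 8 were called under FR, against 0.331%, and 1 of 8 under WL, against 1.51%. Solyc02g088100 was thus called within neither light of Moneymaker, nor under FR in M82. Solyc04g081870, which rose under far-red light in internodes, also had the lower mean in pith in 8 of 8 comparisons, at -0.47 ± 0.18 in Moneymaker (limma adjusted p = 0.23) and -0.59 ± 0.19 in M82 (adjusted p = 0.073). It did not pass in either cultivar, and in M82 it passed in 5 of 29 fits without 1 library. Solyc03g031840 gave 0.37 ± 0.12 in Moneymaker (adjusted p = 0.13) and 0.05 ± 0.13 in M82 (adjusted p = 0.97). The median log2 fold change of the 8 genes was -0.08 in Moneymaker and 0.03 in M82, beside 0.01 and -0.01 over all tested genes.

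No difference between the cultivars was called. Between M82 and Moneymaker, 0 of 8 genes were called in internodes, against 0.977% of all tested genes, and 0 of 8 in pith, against 0.993%. The log2 fold changes ran from -0.16 to 0.23 in internodes and from -0.3 to 0.81 in pith. The largest was Solyc03g115890 in pith, at 0.81 ± 0.27 (limma adjusted p = 0.15), which DESeq2 called (1.1, adjusted p = 0.021). Without the 11 libraries, 9 of them against the cultivar label, it was 0.84 ± 0.26 (adjusted p = 0.089). Both counts stayed at 0 of 8 without these libraries. The shares of all tested genes given here are from the groups as labelled.

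No difference of the far-red effect was called for any of the 8 genes. Between the cultivars 0 of 8 were called in internodes and in pith, and between pith and internode 0 of 8 in Moneymaker and in M82, with 0% of all tested genes called in each. The M82 groups here include the 6 WL libraries that were Moneymaker by expression, and no FR library of that kind. Without the 11 libraries against a label the counts stayed at 0 of 8. These 4 comparisons had 496, 1412, 740 and 1587 genes with an unadjusted limma p below 0.05, edgeR called 0 in each, and DESeq2 called 0, 2, 3 and 0. An F-test of the effect between the 4 internode times called 0 of 8 genes in either cultivar, against 0% of all genes in Moneymaker and 0.0105% in M82. Between 24 and 48 h and 6 and 30 h the far-red effect was called for 0 of 8 genes, against 0% in Moneymaker and 0.00526% in M82.

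The genes Solyc06g051800, Solyc03g031840 and Solyc10g086520 were called in no comparison of means. Solyc03g031840 was the steadiest of the 8: its scaled count lay between 28.2 and 91.0 in all 86 libraries, and its 24 group means spanned 0.66 on the log2 scale, a smaller span than that of all but 4.21% of the tested genes. Solyc06g051800 ran from 0.279 to 22.1 with a median of 20 reads per library, and 13 libraries had fewer than 10. Its lowest group was FR pith of M82 at 30 h, with values of 6.53 and 0.279. Solyc10g086520 ran from 1.14 to 18.1 with a median of 13 reads, and 25 libraries had fewer than 10. Like Solyc03g115890, both were measured with few reads, and the SD within groups was 0.64 to 0.71 on the log2 scale for these 3 genes, against 0.28 to 0.54 for the other 5.

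**Figure D5:**
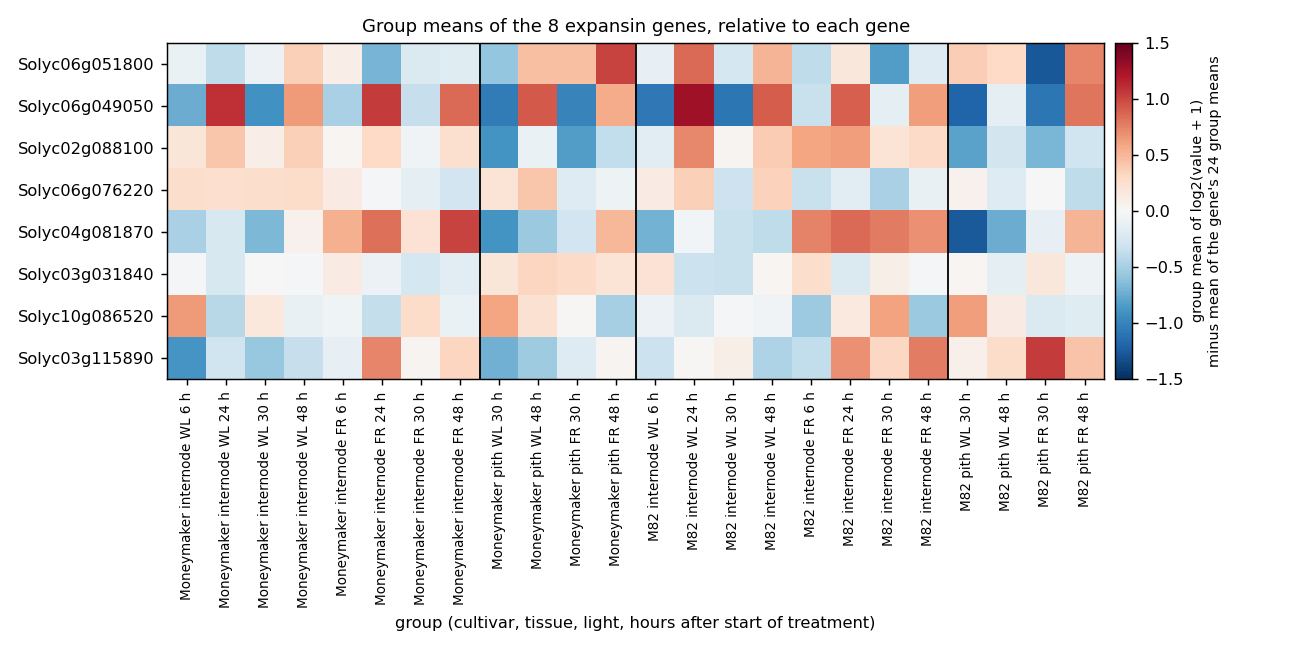
Mean log2(value + 1) of each of the 24 groups, for each gene relative to the mean of its own 24 group means (colour, from -1.5 in blue to 1.5 in red), with groups ordered by cultivar, tissue, light and time. Solyc04g081870 has a higher mean in each FR column than in the WL column of the same cultivar, tissue and time, Solyc06g049050 alternates with time, and Solyc02g088100 has a lower mean in each pith column than in the matching internode column.

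The 8 genes did not move as a block. Over the 24 group means, Pearson's r between 2 of them ran from -0.55 to 0.62 over 28 pairs, with 4 pairs at 0.5 or above and 2 at -0.5 or below. The highest was Solyc06g049050 with Solyc02g088100 (r = 0.62) and the lowest Solyc06g076220 with Solyc03g115890 (r = -0.55). These are descriptions, since the groups share libraries' batches, times and light. The genes whose group means were most like Solyc04g081870 were Solyc01g110730 (r = 0.91) and Solyc01g110780 (r = 0.9). Those most like Solyc06g049050 were Solyc09g082690 (r = 0.96) and Solyc10g084370 (r = 0.95), and those most like Solyc02g088100 were Solyc11g010960 and Solyc02g071610 (both r = 0.91), each over 24 groups.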

How the data were processed

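The table that the authors deposited gives each gene a signal in each library: its read count divided by a single factor per library. The submitters' processing notes name FastQC, Trim Galore, STAR and featureCounts but no version of any. Build, annotation and strand use were not given in the sources used here, so genes with similar copies or antisense partners may share reads. Whole reads were recovered from the steps between values (100% of those below 2000 reads were whole within 0.02). Log2 values with a pseudocount of 1 were tested with limma 3.58.1 in R 4.3.3, with trend and robust moderation, in place of a model for raw counts, after a filter on a mean of at least 1. Alternatives were edgeR 4.0.16 and DESeq2 1.42.0 on the recovered reads, other scalings, pseudocounts and filters, a replicate block and omission of libraries. The limma and edgeR fits were also run on simulated counts with known changes. Those counts held no batches and no libraries against a label, so the run does not bear on either.

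Groups came from sample titles, since a treatment field gives FR for all white-light Moneymaker samples. The 8 genes, comparisons and alternatives were chosen with earlier results of these data known. All 8 genes are named. For each, the 2 genes with the most similar group means were found, and those of 3 genes are named. The series design states that a replicate number stands for a batch of plants, so it pairs samples. The batch of numbers 7 and 8 is uncertain, since their sample codes carry other numbers. Residuals of FR and WL libraries of the same number correlated at 0.05 on average (26 pairs), and of other numbers at -0.0086 (125 pairs). Libraries of the same light from other tissues or times correlated at 0.12 with the same number (142 pairs), and at -0.026 with another (651 pairs). P-values measure the spread between these libraries. No column lacked a sample (0 columns).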

Additional observations from a re-analysis of the deposited data

Results flagged for a closer look

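Of 96 combinations of gene and group with 4 to 10 libraries, 3 had a library far from the rest, where a nominal rate of 1 in 20 would give 4.8. That rate holds for normally distributed values. The rule was applied to scaled counts without a log, and the genes share libraries, so the true rate here is not known. Solyc06g049050 was at 187 in the Moneymaker FR internode library number 3 at 6 h, beside 111 to 128 in the other 4. Solyc10g086520 was at 6.36 in the M82 WL pith library number 6 at 48 h, a library that resembled 6 and 30 h, beside 4.16 to 4.7 in the other 4. The same gene was at 4.93 in the Moneymaker FR pith library number 1 at 48 h, beside 2.12 to 2.45 in the other 3.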

How the results depend on the processing

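No value changed sign as a call under any alternative run: edgeR, DESeq2, TMM scaling, DESeq2 size factors, pseudocounts of 0.25 and 4, no filter or a mean of at least 5, a fit of only the groups compared, a replicate block, and omission of the libraries against a label or of each library. Counts of called genes out of 8 moved as follows. FR minus WL in Moneymaker internodes went from 1 to 2 with DESeq2, the replicate block and without the libraries against a label, and lay between 1 and 2 without each library. In Moneymaker pith it lay between 0 and 1. In M82 pith it went from 1 to 0 with only the groups compared and without the libraries against a label, and lay between 0 and 1. Pith minus internode in M82 lay between 0 and 2 around 1. Between 24 and 48 h and 6 and 30 h, Moneymaker internodes went from 1 to 2 with a mean of at least 5, with only the groups compared and without the libraries against a label (range 1 to 2), and M82 internodes from 2 to 1 with no filter, with only the groups compared and with the replicate block (range 1 to 2). Between 48 and 30 h, Moneymaker pith went from 2 to 1 with DESeq2, its size factors, edgeR, no filter, only the groups compared and the replicate block (range 1 to 2), and M82 pith lay between 1 and 3, the 3 without the FR library number 1 at 30 h. M82 minus Moneymaker in pith went from 0 to 1 with DESeq2, and lay between 0 and 1. The replicate block changed no other count. Causes were not tested. Low read numbers limit the precision of the 3 genes with medians of 13, 14 and 20 reads.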
